A study of Mus musculus with 23 samples.

Results

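Serpina3n, Ggta1, Lcn2, Osmr, Cd44, S1pr3, Steap4, Aspg, Slc14a1 and Clu are genes of reactive astrocytes that do not encode intermediate filaments. They were chosen by name, with earlier results of these data known, and all 10 are among the 39017 genes counted in mouse cortex. The series asks what substitutions of glycine 34 in the histone variant encoded by H3f3a do to the cortex. At 10 weeks of age it holds 3 animals labelled Hf3fa+/G34R (glycine to arginine, called G34R here), 3 labelled Hf3fa+/G34V (valine, G34V), 2 labelled Hf3fa+/G34W (tryptophan, G34W) and 6 wild-type animals labelled Hf3fa+/+ (WT). At postnatal day 7 it holds 4 animals labelled H3f3a G34R/+ (G34R) and 4 labelled H3f3a +/+ (WT). The 10-week labels spell the gene Hf3fa, and each substitution is on 1 allele per the labels. The sex labels give 1 female at 10 weeks (G34W replicate 2), with the rest male, and 2 animals of each sex per genotype at day 7. Levels of Xist and Ddx3y matched the sex label in all 22 animals. Replicates are separate animals by the numbers in their titles. How the alleles were made and in which cells they are expressed is not given in the sources used here.

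Astrocytes respond to injury, infection and neuronal damage by a change of state called reactive astrogliosis, in which cytokines such as interleukin-1, tumour necrosis factor and the interleukin-6 family act on receptors of the astrocyte and change its transcription through NF-kB and STAT3. Studies of mouse astrocytes have divided the genes that rise into pan-reactive genes, seen after several kinds of insult, and into sets called A1 (first described after an inflammatory insult) and A2 (first described after ischaemia). Serpina3n, Lcn2, Osmr, Cd44, S1pr3, Steap4 and Aspg belong to the pan-reactive set and Ggta1 to the A1 set, while Clu and Slc14a1 are made by astrocytes at rest as well. The tissue was pulverised whole cortex, so that fewer cells of a type and less RNA per cell cannot be told apart, and a gene named for astrocytes can also be expressed by other cells.

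Total RNA depleted of ribosomal RNA was sequenced in 23 libraries with 28414057 to 90067111 counts each. The 12 astrocyte markers, among them Aldh1l1, Slc1a3 and Aqp4, had counts in all 22 animals. Summed Serpina3n counts over animals came to 12690 and Clu counts to 500206, but Steap4 had 4 to 48 counts per animal and Lcn2 0 to 14, so these 2 genes were measured with little precision. In each library 69.8 to 75.9% of the genes with a count of 1 to 20 had an even count. Counts are therefore not independent molecules, and how the mates of a read pair were counted is not given in the sources used here. Levels below are in CPM, counts scaled to the size of the library, on 1 scale for all animals (trimmed mean of M-values, TMM). Genes were tested by quasi-likelihood in edgeR with p-values adjusted by Benjamini-Hochberg over all genes tested, and "rose" or "fell" stands for an adjusted p under 0.05.

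The sequence before each gene's start is shown because 6 of the 10 genes rose in G34R cortex, as described below, and STAT3 and NF-kB are the factors most often named for this response. RefSeq promoters (GRCm38.p6, 250 bases before the start to 50 bases after it) of 8 of the 10 genes were used. Clu had no entry in the promoter source used here, and Slc14a1 was left out of the search. Both strands were searched for the STAT motif TTCNNNGAA, the AP-1 motif TGANTCA and the NF-kB motif. The 4 sequences that follow belong to genes that rose in G34R cortex, and that of Steap4 to a gene whose change did not pass the test, with motif matches in capitals.
Serpina3n, chr12:104406458-104406757, plus strand: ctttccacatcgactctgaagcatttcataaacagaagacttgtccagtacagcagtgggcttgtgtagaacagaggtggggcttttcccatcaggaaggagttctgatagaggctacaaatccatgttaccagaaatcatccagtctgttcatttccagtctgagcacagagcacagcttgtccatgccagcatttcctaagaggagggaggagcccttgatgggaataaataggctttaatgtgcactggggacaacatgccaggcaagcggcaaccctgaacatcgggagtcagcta
Ggta1, chr2:35461400-35461699, minus strand: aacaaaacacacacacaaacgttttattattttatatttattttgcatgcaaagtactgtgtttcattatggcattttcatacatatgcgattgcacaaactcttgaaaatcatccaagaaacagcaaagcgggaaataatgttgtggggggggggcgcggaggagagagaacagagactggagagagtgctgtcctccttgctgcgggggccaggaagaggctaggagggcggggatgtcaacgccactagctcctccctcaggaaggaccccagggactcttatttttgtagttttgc
Aspg, chr12:112106433-112106732, plus strand: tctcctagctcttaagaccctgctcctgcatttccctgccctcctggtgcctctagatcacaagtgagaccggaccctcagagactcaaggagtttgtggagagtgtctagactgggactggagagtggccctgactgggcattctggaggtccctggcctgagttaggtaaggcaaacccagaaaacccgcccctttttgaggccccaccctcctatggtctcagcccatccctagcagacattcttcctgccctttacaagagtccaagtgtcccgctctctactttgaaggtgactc
Osmr, chr15:6874264-6874563, minus strand: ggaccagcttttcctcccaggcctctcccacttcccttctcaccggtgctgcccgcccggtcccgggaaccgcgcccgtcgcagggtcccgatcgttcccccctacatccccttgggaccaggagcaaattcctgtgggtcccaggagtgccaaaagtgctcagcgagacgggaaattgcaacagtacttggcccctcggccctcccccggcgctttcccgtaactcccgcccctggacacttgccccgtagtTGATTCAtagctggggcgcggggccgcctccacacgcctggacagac
Steap4, chr5:7960222-7960521, plus strand: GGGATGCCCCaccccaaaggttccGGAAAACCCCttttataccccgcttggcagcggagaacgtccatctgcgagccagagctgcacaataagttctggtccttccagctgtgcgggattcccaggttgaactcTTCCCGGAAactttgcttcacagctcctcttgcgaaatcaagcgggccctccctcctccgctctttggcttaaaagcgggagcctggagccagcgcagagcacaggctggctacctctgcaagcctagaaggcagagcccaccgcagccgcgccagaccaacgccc
The promoters of Serpina3n, Ggta1 and Aspg held none of the 3 motifs. That of Osmr held 1 AP-1 match, at position 4 counted from the start site. The promoter of Steap4 held 1 STAT match, from position -116, and 2 NF-kB matches on the minus strand, from -250 and -226, and these 3 matches do not overlap. The other promoters, of Lcn2, Cd44 and S1pr3, held no match. Over all 32851 mouse promoters of this length, 8.30% held the STAT motif, 7.81% the AP-1 motif and 4.51% the NF-kB motif. A match is a run of letters and not a measured site, and the lack of one covers only this window.

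In G34R cortex at 10 weeks, 6 of the 10 genes rose relative to WT and 0 fell, where 5.61% of all 21274 genes tested passed, 2.95% as higher and 2.66% as lower. The 6 were the protease inhibitor gene Serpina3n, the urea transporter gene Slc14a1, the galactosyltransferase gene Ggta1, the asparaginase gene Aspg, the cytokine receptor gene Osmr and the chaperone gene Clu. Their levels were 1.39 to 2.46 times those of WT. The hyaluronan receptor gene Cd44 and the sphingosine-1-phosphate receptor gene S1pr3 had levels close to WT, and Steap4 and Lcn2 were too low to place. In the same 6 genes each G34R animal was above each WT animal, which held for 6.16% of all genes in the higher and 6.06% in the lower direction. The median log2 fold change was 0.70 over the 10 genes and -0.0036 over all genes tested. Because the 10 genes were chosen with earlier results of these data known, these shares and medians describe them and do not test them as a set.

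**Figure D1:**
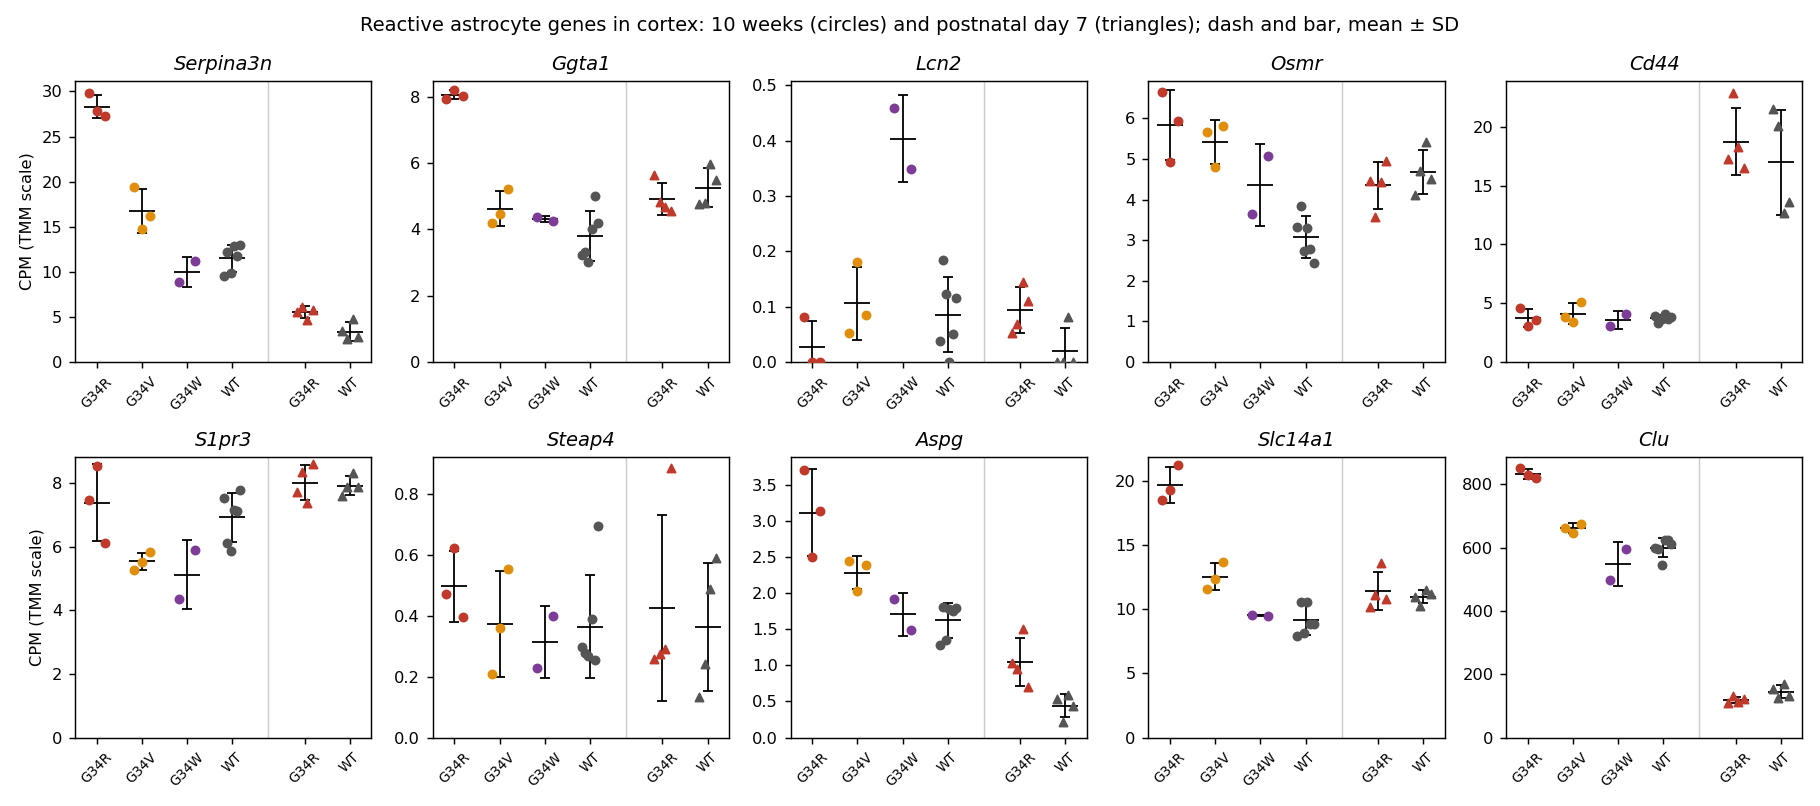
Level of each gene in every animal, in CPM on the TMM scale (vertical axes from 0), by group along the horizontal axis. Circles are 10-week animals, triangles day-7 animals, and dashes with bars the mean ± SD; for Serpina3n the G34R animals at 10 weeks lie between 27.3 and 29.8 CPM and the WT animals between 9.47 and 12.96 CPM.

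Among the secreted proteins, Serpina3n (ENSMUSG00000021091, GRCm38 chr12:104406729-104414329, plus strand) encodes a serine protease inhibitor whose transcript is widely used to mark reactive astrocytes in mice. It had 29.8, 27.9 and 27.3 CPM in the 3 G34R animals, and in the 6 WT animals a lowest value of 9.47, a median of 11.97 and a highest of 12.96 CPM. The 3 G34R values lay close together and far above all WT values. Serpina3n rose by a log2 fold change of 1.30 (SE 0.109, adjusted p = 8.98e-07 by edgeR). Serpina3n has close paralogs in the same cluster, and the 13 other Serpina3 genes counted summed to 4.36 to 19.2% of the Serpina3n counts in the 10-week animals, so that the split of reads between these genes is uncertain.

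Clu (ENSMUSG00000022037, chr14:65968483-65981547, plus strand) encodes clusterin, an extracellular chaperone and apolipoprotein that astrocytes release in large amounts. It stood at 849.8, 829.8 and 819.7 CPM in G34R animals, with a lowest value of 546, a median of 605 and a highest of 624 CPM in WT animals. Again no WT animal reached the lowest G34R animal. Clu rose by a log2 fold change of 0.47 (SE 0.0587, adjusted p = 5.18e-05 by edgeR), the smallest fold of the 6 but on the highest level. Lcn2 (ENSMUSG00000026822, chr2:32384633-32388252, minus strand) encodes lipocalin-2, a secreted carrier of iron-binding siderophores that neutrophils and reactive astrocytes make. Its counts were 6, 0 and 0 in G34R animals, and 2, 8, 10, 0, 2 and 4 in WT animals, so that no difference was detectable at this depth.

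Of the receptors, Osmr (ENSMUSG00000022146, chr15:6813577-6874969, minus strand) encodes the chain that pairs with gp130 to bind oncostatin M and signals through JAK kinases to STAT3. Osmr had 6.65, 4.93 and 5.94 CPM in G34R animals, against 2.43 (lowest), 3.04 (median) and 3.83 CPM (highest) in WT animals. The G34R animals varied more here than for Serpina3n, yet stayed above every WT animal. Osmr rose by a log2 fold change of 0.93 (SE 0.153, adjusted p = 0.000855 by edgeR).

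Cd44 (ENSMUSG00000005087, chr2:102811141-102901665, minus strand), whose product binds hyaluronan of the extracellular matrix, had 4.54, 3.09 and 3.56 CPM in G34R animals and 3.33, 3.74 and 4.04 CPM as the lowest, median and highest WT values. The G34R animals lay on both sides of the WT range, and the log2 fold change was 0.0078 (SE 0.157, adjusted p = 0.990 by edgeR). S1pr3 (ENSMUSG00000067586, chr13:51408639-51422797, plus strand) encodes a G protein-coupled receptor for sphingosine-1-phosphate. It had 7.49, 8.56 and 6.13 CPM in G34R animals, and 5.86, 7.15 and 7.78 CPM as the lowest, median and highest WT values. The groups overlapped, with a log2 fold change of 0.092 (SE 0.128, adjusted p = 0.778 by edgeR). S1pr3 shares 45 exonic bases with a non-coding gene on the opposite strand, Gm32834, and no strand setting of the counting is given in the sources used here.

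Among the enzymes, Ggta1 (ENSMUSG00000035778, chr2:35400179-35463231, minus strand) encodes the transferase that adds the alpha-galactose epitope to glycans. Ggta1 had 7.94, 8.22 and 8.04 CPM in G34R animals, and in WT animals a lowest value of 3.02, a median of 3.66 and a highest of 5.004 CPM. The G34R values lay close together and stood apart from WT. Ggta1 rose by a log2 fold change of 1.09 (SE 0.137, adjusted p = 5.69e-05 by edgeR). Aspg (ENSMUSG00000037686, chr12:112106679-112127559, plus strand) encodes an asparaginase, and had 3.70, 2.49 and 3.14 CPM in G34R animals and 1.28, 1.77 and 1.801 CPM as the lowest, median and highest WT values. All 3 G34R animals were above WT, and Aspg rose by 0.95 (SE 0.172, adjusted p = 0.0021 by edgeR).

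Steap4 (ENSMUSG00000012428, chr5:7960457-7982213, plus strand) encodes a metalloreductase of iron and copper. It had 0.470, 0.624 and 0.396 CPM in G34R animals and 0.254, 0.287 and 0.694 CPM as the lowest, median and highest WT values. Of the WT animals 1 was above all G34R animals and 5 were below them, and the log2 fold change of 0.46 (SE 0.394) did not pass the test (adjusted p = 0.606 by edgeR).

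Slc14a1 (ENSMUSG00000059336) encodes the urea transporter UT-B of red cells and, in brain, of astrocytes. It had 18.5, 19.3 and 21.2 CPM in G34R animals, and 7.95, 8.86 and 10.6 CPM as the lowest, median and highest WT values. The lowest G34R animal was well above the highest WT animal. Slc14a1 rose by a log2 fold change of 1.10 (SE 0.0969, adjusted p = 1.34e-06 by edgeR).

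The calls of all 6 genes held in all 18 alternative fits of this comparison, which included leaving out each animal, DESeq2, a block on number runs and the use of only the 6 libraries with the lower share of mitochondrial counts (0.885 to 1.03%, 3 G34R and 3 WT). In that last fit, chosen after seeing the data, Serpina3n had a log2 fold change of 1.37 (adjusted p = 9.45e-05 by edgeR) and Clu 0.51 (adjusted p = 0.000398 by edgeR).

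**Figure D2:**
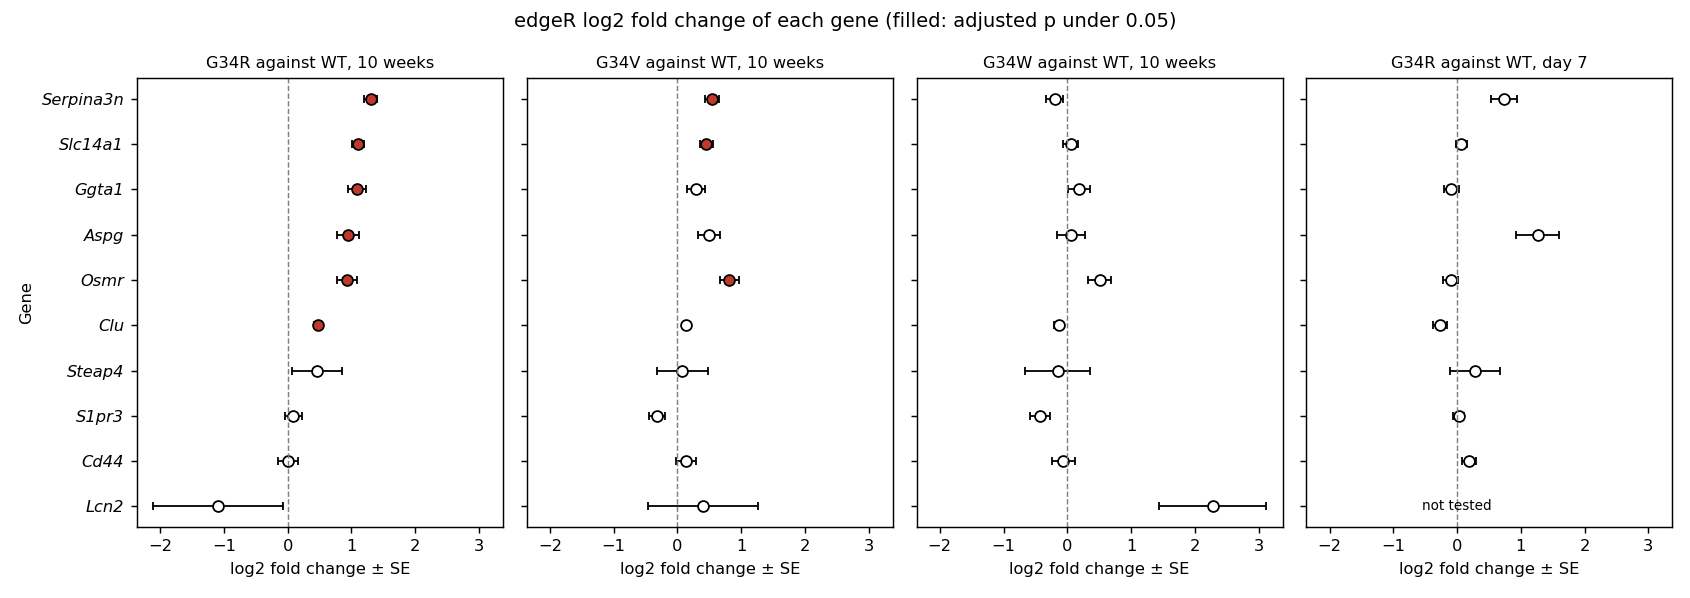
Log2 fold change ± SE from edgeR (horizontal axes) of each gene (vertical axis) for G34R, G34V and G34W against WT at 10 weeks and for G34R against WT at day 7, with 0 as the dashed line. Filled points have an adjusted p under 0.05: 6 genes in G34R and 3 in G34V at 10 weeks, and 0 in G34W and 0 at day 7.

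In G34V cortex at 10 weeks, 3 of the 10 genes rose relative to WT and 0 fell, where 4.25% of all genes passed, as 1.57% of all genes tested rose and 2.68% fell. Osmr had 5.65, 4.79 and 5.81 CPM in G34V animals, against a WT range of 2.43 to 3.83 CPM. Every G34V animal was above every WT animal, and Osmr rose by a log2 fold change of 0.82 (SE 0.154, adjusted p = 0.0041 by edgeR), close to its fold in G34R. Serpina3n had 19.4, 14.7 and 16.2 CPM in G34V animals and rose by 0.54 (SE 0.112, adjusted p = 0.00815 by edgeR). Slc14a1 had 11.6, 12.3 and 13.7 CPM in G34V animals and rose by 0.45 (SE 0.0996, adjusted p = 0.0122 by edgeR). For both genes the G34V animals were above the WT ranges of 9.47 to 12.96 CPM and 7.95 to 10.6 CPM.

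Aspg, at 2.44, 2.02 and 2.39 CPM, and Clu, at 663, 646 and 675 CPM, were also above each WT animal in each G34V animal, with log2 fold changes of 0.49 (SE 0.178, adjusted p = 0.151 by edgeR) and 0.14 (SE 0.0594, adjusted p = 0.241 by edgeR). S1pr3, at 5.27, 5.53 and 5.83 CPM, was below each WT animal, with a log2 fold change of -0.32 (SE 0.131, adjusted p = 0.225 by edgeR). These 3 genes thus separated the groups without passing the test. In all, 5 genes were higher and 1 lower without overlap, against 4.32% and 5.9% of all genes. Ggta1 had 4.20, 4.47 and 5.21 CPM in G34V animals and overlapped WT, with a log2 fold change of 0.29 (SE 0.143, adjusted p = 0.336 by edgeR). Cd44 at 3.79, 3.37 and 5.12 CPM and Steap4 at 0.208, 0.360 and 0.555 CPM overlapped WT, and Lcn2 had 2, 8 and 4 counts.

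The G34V calls depended on the fit. When runs of consecutive animal numbers were blocked, 0 of the 3 genes passed (adjusted p = 0.0773 by edgeR for Serpina3n, 0.093 for Osmr and 0.132 for Slc14a1), although their log2 fold changes were 0.58, 0.72 and 0.42. The call of Serpina3n ended without G34V replicate 1 (adjusted p = 0.085 by edgeR) and with only the libraries of higher mitochondrial share (adjusted p = 0.054 by edgeR), and that of Slc14a1 without G34V replicate 3 (adjusted p = 0.0918 by edgeR).

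In G34W cortex at 10 weeks, 0 of the 10 genes passed edgeR's test against WT, where 1.61% of all genes did (0.564% higher, 1.05% lower). At an unadjusted p under 0.05 there were 3 genes, 2 of them higher, and with DESeq2 there were 0. Serpina3n had 8.81 and 11.2 CPM in the 2 G34W animals, 1 of them just below the WT range, and both Slc14a1 values (9.54 and 9.497 CPM) and both Ggta1 values (4.37 and 4.25 CPM) were inside the WT ranges. Osmr, at 3.64 and 5.07 CPM, had a log2 fold change of 0.51 (SE 0.183, adjusted p = 0.171 by edgeR), with 1 animal above all WT animals and 1 within them. S1pr3, at 4.37 and 5.89 CPM, had a log2 fold change of -0.42 (SE 0.157, adjusted p = 0.181 by edgeR).

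Lcn2 was the gene whose counts separated G34W from WT, with 12 and 14 counts in G34W animals and at most 10 in WT animals. In CPM that was 0.460 and 0.348 in G34W, against 0 to 0.185 in WT, and the log2 fold change of 2.28 (SE 0.838) had an edgeR adjusted p of 0.181. Without overlap, 7.54% of all genes were higher and 8.86% lower in G34W. Clu had 498 and 597 CPM in G34W animals, Aspg 1.92 and 1.49 CPM, Cd44 3.03 and 4.10 CPM and Steap4 0.230 and 0.398 CPM, each with a log2 fold change between -0.15 and 0.06 and an edgeR adjusted p of at least 0.332. With 2 animals, of which 1 was female, G34W was the least precisely measured group.

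The substitutions were then compared with each other. Here the libraries differed in the share of mitochondrial counts as the genotypes did, with 0.885 to 0.984% in the 3 G34R libraries, against 1.12 to 1.23% in the 3 G34V and 1.33 and 1.36% in the 2 G34W libraries. WT libraries lay in both sets, and the 2 libraries of 1 WT animal had 0.933 and 1.27%, so G34R can be compared with G34V and G34W within a set only through WT animals. Group means ran in the order G34R, G34V, G34W, WT for Ggta1, Osmr, Aspg and Slc14a1, and G34R, G34V, WT, G34W for Serpina3n, Steap4 and Clu. The other genes had other orders: G34W, G34V, WT, G34R for Lcn2, G34V, G34R, WT, G34W for Cd44, and G34R, WT, G34V, G34W for S1pr3. How many of all genes had each order was not counted. Relative to G34V, 2 of the 10 genes rose in G34R, where 0.23% of all genes passed (0.174% higher, 0.0564% lower). These were Serpina3n, with a log2 fold change of 0.76 (SE 0.13, adjusted p = 0.0208 by edgeR), and Slc14a1, with 0.65 (SE 0.115, adjusted p = 0.0211 by edgeR). Ggta1 (0.80, SE 0.164, adjusted p = 0.056 by edgeR) and Clu (0.33, SE 0.069, adjusted p = 0.0618 by edgeR) did not pass edgeR's test although the G34R and G34V animals did not overlap, and both passed DESeq2's test (adjusted p = 0.000797 and 0.000413). In all, 6 genes were higher without overlap in G34R than in G34V, against 9.24% of all genes, with 9.41% lower. Osmr differed by 0.11 (SE 0.179, adjusted p = 0.867 by edgeR) between G34R and G34V, within its spread. With 3 animals on each side, leaving out single animals moved the count of genes that rose between 0 and 4. Serpina3n was not called without G34R replicate 1 or 2 or without G34V replicate 2, nor Slc14a1 when any 1 G34R replicate or G34V replicate 1 or 2 was left out. With the mitochondrial set as a term (the WT animal in both sets left out, a fit added after seeing the data), 0 of the 10 genes passed, with log2 fold changes of 0.89 for Serpina3n (adjusted p = 0.283 by edgeR) and 0.67 for Slc14a1 (adjusted p = 0.573 by edgeR). With the block on number runs 0 passed as well (adjusted p = 0.672 by edgeR for both), so that the calls between G34R and G34V did not hold once library set or number run was taken into account.

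Relative to G34W, 4 genes rose in G34R, where 1.88% of all genes passed (0.945% higher, 0.935% lower). Their log2 fold changes were 1.498 (SE 0.156, adjusted p = 0.00014 by edgeR) for Serpina3n, 1.05 (SE 0.135, adjusted p = 0.00111 by edgeR) for Slc14a1, 0.61 (SE 0.0784, adjusted p = 0.00111 by edgeR) for Clu and 0.91 (SE 0.19, adjusted p = 0.0242 by edgeR) for Ggta1. The call of Ggta1 ended when any 1 of the 5 animals was left out (edgeR adjusted p from 0.0589 to 0.083). Aspg had a log2 fold change of 0.89 (SE 0.241, adjusted p = 0.0684 by edgeR). With the mitochondrial set as a term, only Serpina3n of the 4 passed (1.63, adjusted p = 0.00675 by edgeR), while Slc14a1 had 1.07 (adjusted p = 0.0771 by edgeR), Clu 0.61 (adjusted p = 0.0594 by edgeR) and Ggta1 1.10 (adjusted p = 0.191 by edgeR). With the block on number runs, too, Serpina3n alone passed (1.62, adjusted p = 0.0247 by edgeR). Without overlap, 6 genes were higher and Lcn2 lower in G34R than in G34W, against 16.9% and 16.5% of all genes.

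Between G34V and G34W, edgeR called 0 of the 10 genes, where 0.15% of all genes passed (0.0376% higher, 0.113% lower). Without overlap 4 of the 10 were higher and 1 lower in G34V, against 13.6% and 13.8% of all genes. At an unadjusted p under 0.05 there were 3, and DESeq2 called 2, Serpina3n and Clu. Serpina3n, whose G34V animals were all above both G34W animals, had a log2 fold change of 0.74 (SE 0.154, adjusted p = 0.0641 by edgeR). Without G34W replicate 2, the female, Serpina3n and Clu passed (adjusted p = 0.027 and 0.0202 by edgeR), with the remaining G34W animal assumed to vary like the other groups. By edgeR's test G34V, G34W and WT were thus not separated for Ggta1, Aspg and Clu, nor G34W and WT for any of the 10 genes. The comparisons of the 3 substitutions with WT share the same 6 WT animals.

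At postnatal day 7, 0 of the 9 genes tested passed edgeR's test in G34R against WT, where 0.308% of all 20451 genes tested did (0.112% higher, 0.196% lower), and Lcn2 was too low to be tested. At an unadjusted p under 0.05 there were 3, of which 2 were higher. Aspg had 1.03, 0.944, 1.497 and 0.700 CPM in G34R animals, and 0.531, 0.222, 0.589 and 0.432 CPM in WT animals. It was the only gene of the 10 whose day-7 groups did not overlap, which was so for 2.28% of all genes in the higher and 2.92% in the lower direction. Its log2 fold change was 1.26 (SE 0.34, adjusted p = 0.253 by edgeR), on counts of 11 or more per animal.

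Serpina3n had 5.48, 6.11, 4.64 and 5.80 CPM in day-7 G34R animals and 3.45, 2.50, 4.76 and 2.71 CPM in day-7 WT animals. WT replicate 3, a female, overlapped the lowest G34R animal. The log2 fold change was 0.73 (SE 0.203) with an edgeR adjusted p of 0.288, which became 0.0474 without that WT animal, and DESeq2 gave an adjusted p of 0.0415. Clu had 110.3, 131, 111 and 123 CPM in G34R animals and 152, 124, 169 and 132 CPM in WT animals, with a log2 fold change of -0.27 (SE 0.11, adjusted p = 0.629 by edgeR). The direction for Clu was thus opposite to that at 10 weeks, with groups that overlapped. Ggta1, Osmr, Slc14a1, S1pr3, Cd44 and Steap4 had log2 fold changes between -0.10 and 0.27 and edgeR adjusted p of at least 0.799. Lcn2 had 2, 4, 6 and 6 counts in G34R animals and 0, 0, 4 and 0 counts in WT animals.

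The difference between the G34R effect at 10 weeks and that at day 7 was tested in a fit of all 22 animals. It was called as positive for 4 of the 10 genes, where 1.16% of all 22417 genes had a called difference (0.562% positive, 0.602% negative). The differences in log2 fold change were 1.19 (SE 0.187, adjusted p = 0.00102 by edgeR) for Ggta1, 1.05 (SE 0.14, adjusted p = 0.000244 by edgeR) for Slc14a1, 1.04 (SE 0.208, adjusted p = 0.00962 by edgeR) for Osmr and 0.75 (SE 0.11, adjusted p = 0.00048 by edgeR) for Clu. For Serpina3n (0.58, SE 0.217, adjusted p = 0.284 by edgeR) and Aspg (-0.29, SE 0.345, adjusted p = 0.836 by edgeR) the effects at the 2 ages were not separated. Among males only, the differences for Ggta1 (0.97, adjusted p = 0.0954 by edgeR) and Osmr (1.07, adjusted p = 0.0731 by edgeR) no longer passed, and that for Osmr did not pass without G34R replicate 1 at 10 weeks (adjusted p = 0.0578 by edgeR).

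**Figure D3:**
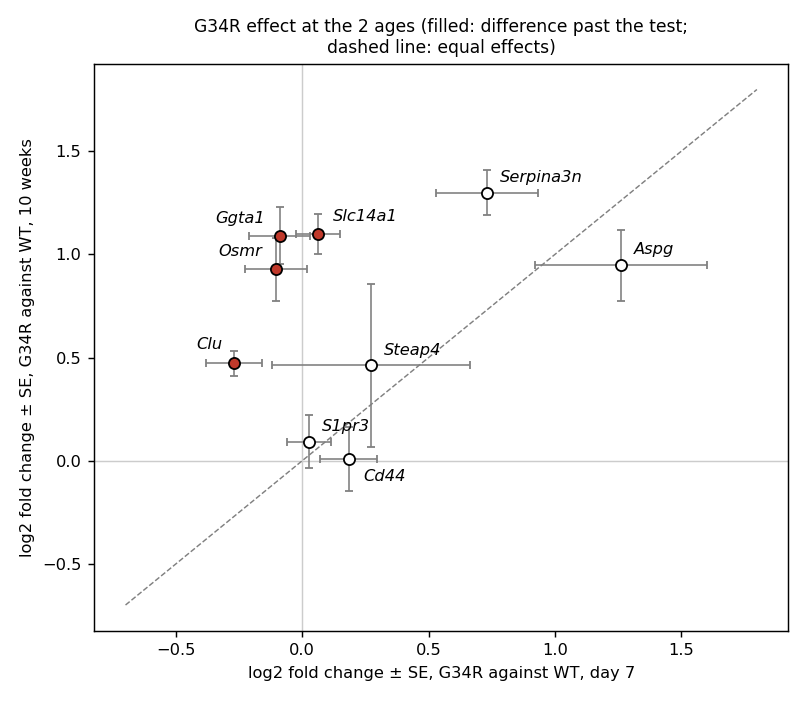
Log2 fold change ± SE of G34R against WT at day 7 (horizontal axis) and at 10 weeks (vertical axis) for the 9 genes tested at both ages. Filled points are the 4 genes whose effects differed between ages by edgeR's test, Ggta1, Slc14a1, Osmr and Clu, all above the dashed line of equal effects; Aspg and Cd44 lie below it.

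In WT at 10 weeks relative to WT at day 7, 3 of the 10 genes rose and 4 fell, a share near that over all genes, of which 67.7% passed (33.3% higher and 34.4% lower). Lcn2, S1pr3 and Steap4 did not pass. Of those that did, Clu rose by a log2 fold change of 2.05 (SE 0.077), Aspg by 1.88 (SE 0.246) and Serpina3n by 1.78 (SE 0.151). Cd44 fell by 2.18 on the log2 scale (SE 0.149), with 3.33 to 4.04 CPM at 10 weeks and 12.7 to 21.5 CPM at day 7. Smaller decreases were called for Osmr (-0.61, SE 0.136), Ggta1 (-0.48, SE 0.122) and Slc14a1 (-0.26, SE 0.0918), with edgeR adjusted p of 0.000361, 0.00133 and 0.0152. All 10-week WT animals were male, and in males alone the decreases of Ggta1 and Slc14a1 were not called (adjusted p = 0.0759 by edgeR and 0.119).

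In G34R at 10 weeks relative to G34R at day 7, 6 genes rose and 1 fell, where 63.8% of all genes passed, 31.5% as higher and 32.3% as lower. Osmr, Ggta1 and Slc14a1 were among those that rose, by 0.43 (SE 0.158), 0.71 (SE 0.142) and 0.79 (SE 0.106), and Cd44 fell by 2.31 on the log2 scale (SE 0.191). The call of Osmr ended without G34R replicate 1 at 10 weeks (adjusted p = 0.124 by edgeR) and without G34R replicate 2 at day 7 (adjusted p = 0.073 by edgeR). Lcn2, at 0 to 10 counts, was called at 10 weeks only with single animals left out, as higher in WT without WT replicate 3 at day 7 (adjusted p = 0.0167 by edgeR) and as lower in G34R without G34R replicate 1 at 10 weeks (adjusted p = 0.0492 by edgeR).

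Per kilobase of exon, Clu was by far the most abundant transcript, with a mean level of 242 CPM per kb in G34R, 192 in G34V, 159 in G34W and 175 in WT at 10 weeks. Serpina3n followed with 13.7 CPM per kb in G34R and 5.58 in WT, and Slc14a1 with 4.93 in G34R and 2.29 in WT. S1pr3 and Ggta1 had 1.66 and 1.71 CPM per kb in G34R, and 1.55 and 0.806 in WT. Aspg, Cd44 and Osmr had mean levels of 0.482 to 0.883 CPM per kb in G34R and 0.253 to 0.551 in WT, and Steap4 and Lcn2 lay below 0.2 CPM per kb in all 6 groups. At day 7 the mean level of Cd44 was 2.76 CPM per kb in G34R and 2.50 in WT, above that of Serpina3n in WT (1.63).

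Other genes of reactive astrocytes were read from lists drawn up with earlier results of these data known. Over all genes, 5.61, 4.25 and 1.61% were called in G34R, G34V and G34W at 10 weeks. Of 13 pan-reactive genes, 7 of which are described above, 7 rose in G34R at 10 weeks, 4 in G34V and 1 in G34W, and 0 fell. Besides Serpina3n and Osmr they included Gfap, the intermediate filament of astrocytes, with log2 fold changes of 1.82 in G34R, 0.84 in G34V and 0.51 in G34W, and the interferon-induced chemokine gene Cxcl10 with 3.25 (SE 0.45) in G34R. Of 12 A1 genes, 5 rose in G34R and 2 in G34V, and besides Ggta1 the smallest adjusted p in G34R were those of Ugt1a1 (1.21, SE 0.17) and the immunoproteasome gene Psmb8 (1.24, SE 0.178). Ugt1a1 shares most exons with its neighbours of the Ugt1a cluster, so that the split of reads between these genes is uncertain. In G34W 0 of the 12 A1 genes passed edgeR's test or DESeq2's, with 3 at an unadjusted p under 0.05.

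Of 11 A2 genes tested, 2 rose in G34R (Cd14, 1.38, SE 0.19, and Tgm1, 3.43, SE 0.728) and 1 fell (S100a10, -0.46, SE 0.12). Cd109 was the A2 gene that fell in G34V (-1.08, SE 0.191) and in G34W (-1.10, SE 0.232). At day 7 in G34R, 0 of 11 pan-reactive genes tested and 0 of 12 A1 genes passed edgeR's test, with 2 and 0 at an unadjusted p under 0.05 and 1 and 0 by DESeq2, and 1 A2 gene, B3gnt5, fell (-0.55, SE 0.0853). At 10 weeks the median log2 fold changes in G34R were 0.50 for the pan-reactive, 0.73 for the A1 and 0.13 for the A2 list.

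**Figure D4:**
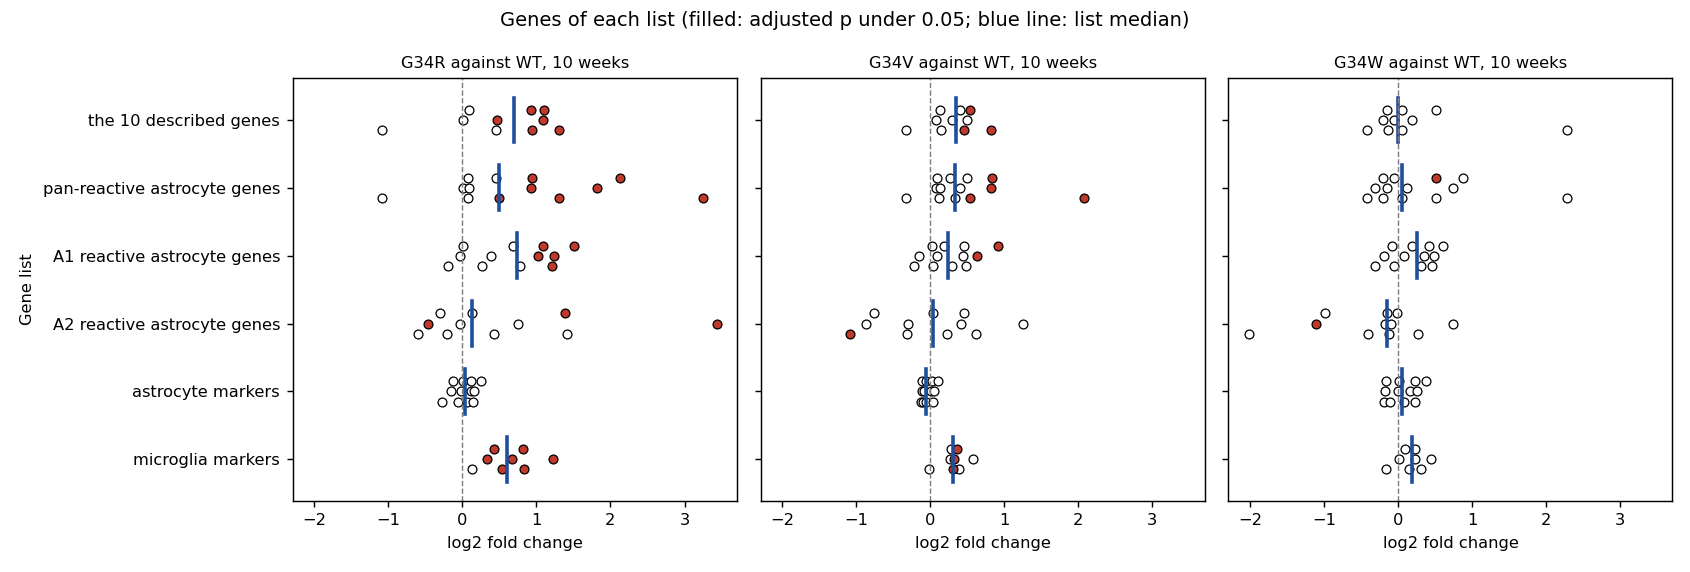
Log2 fold change (horizontal axes) of each gene of 6 lists (vertical axis) for G34R, G34V and G34W against WT at 10 weeks. Filled points have an edgeR adjusted p under 0.05 and blue lines are list medians; in G34R the medians are 0.70 for the 10 described genes and 0.04 for the 12 astrocyte markers, of which 0 passed.

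General astrocyte markers were close to WT. Of 12 markers, edgeR called 0 in G34R, 0 in G34V and 0 in G34W against WT at 10 weeks, with median log2 fold changes of 0.04, -0.06 and 0.05. At an unadjusted p under 0.05 there were 6, 0 and 6 markers, of which 3, 0 and 4 were higher. DESeq2 called 1 as lower in G34R, 0 in G34V and 1 as higher in G34W. The summed level of the 12 markers was 5405 to 5528 CPM in G34R, 5554 to 5620 in G34V, 6136 to 6685 in G34W and 5529 to 6273 CPM in WT, so that the G34R animals were just under the lowest WT animal. This sum is weighted to abundant markers such as Slc1a2, whose log2 fold change in G34R was -0.27 (SE 0.0814). That of Aqp4 was 0.25 (SE 0.092), so the sum does not stand for all 12 markers.

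Markers of microglia were higher beside the reactive astrocyte genes. Of 8 markers, 7 rose in G34R (among them Cx3cr1 by 0.67, SE 0.077, and Csf1r by 0.53, SE 0.0569), 3 in G34V and 0 in G34W. Markers with an unadjusted p under 0.05 numbered 7, 7 and 3, all higher, and DESeq2 called 7, 4 and 1 as higher. Over all genes, 5.61, 4.25 and 1.61% were called in G34R, G34V and G34W. The summed level of the 8 markers was 494 to 536 CPM in G34R, 367 to 456 in G34V, 351 to 381 in G34W and 315 to 347 CPM in WT. No substitution overlapped WT, but the lower of the 2 G34W animals was close to the highest WT animal. Of all genes, 6.16, 4.32 and 7.54% were higher without overlap in G34R, G34V and G34W. At day 7, 3 of the 8 rose in G34R, where 0.308% of all genes passed. The summed levels at day 7 were 175 to 199 CPM in G34R and 144 to 160 CPM in WT, and 2.28% of all genes were higher without overlap. None of the 8 was at 0 in any animal, and their part in the levels of Ggta1, Osmr, Aspg and the rest was not tested.

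Of 8 neutrophil markers, 3 had counts enough for a test at 10 weeks. Csf3r, a receptor that microglia also express, rose in G34R (1.36, SE 0.131) and in G34V (1.01, SE 0.133), while Ly6g had at most 1 count in any animal and was at 0 in 21 of 22, and S100a8 and S100a9 had at most 26 and 32 counts. In G34R the log2 fold changes of S100a8 and S100a9 were -0.35 (SE 0.927) and -2.06 (SE 1.07), and neither was called. Choroid plexus markers varied widely, with a summed level of 460.1 to 758 CPM in G34R, 256 to 1066 in G34V, 29.8 to 213 in G34W and 166 to 958 CPM in WT. In G34R 1 of the 9, Rarres2, rose (0.50, SE 0.135). All 9 of them had a negative log2 fold change in G34W, with a median of -1.08, but edgeR and DESeq2 called 0 and 3 had an unadjusted p under 0.05. Of 8 oligodendrocyte markers, edgeR called 0 in G34R, 3 as lower in G34V and 2 as lower in G34W. Those with an unadjusted p under 0.05 numbered 4, 7 and 6, with 0 higher, and DESeq2 called 1, 7 and 3 as lower. The summed level of the 8 oligodendrocyte markers was 3152 to 4059 CPM in G34R, 2631 to 3431 in G34V, 2849 to 4341 in G34W and 4182 to 5486 CPM in WT. There was no overlap between G34R or G34V and WT. Of all genes, 6.06 and 5.9% were lower without overlap in G34R and G34V. Of 8 endothelial, 9 mural and fibroblast and 8 neuron markers, edgeR called 0 in each of the 3 comparisons with WT. At an unadjusted p under 0.05 there were 0 to 2 endothelial or mural markers and 2 to 5 neuron markers, and DESeq2 called 1 neuron marker as lower in G34R and 2 as higher in G34W. The part of these cells in the results was not tested.

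Genes of the receptors' pathways were counted in the same way, beside 5.61% of all genes called in G34R. Of 14 genes of the oncostatin M and interleukin-6 family tested at 10 weeks, Stat3 rose in G34R (0.31, SE 0.0631, adjusted p = 0.00556 by edgeR) and the phosphatase gene Ptpn11 fell (-0.25, SE 0.0496), while Il6ra rose in G34V (0.62, SE 0.148). Stat3 averaged 52.1 ± 4.63 CPM in G34R (SD, n = 3) and 42.0 ± 2.04 CPM in WT (SD, n = 6). Of 14 genes of interleukin-1, tumour necrosis factor and NF-kB signalling, 3 rose in G34R and 1 fell. The 3 were the receptor genes Tnfrsf1a (0.79, SE 0.128) and Tnfrsf1b (0.83, SE 0.138) and the cytokine gene Il1a (1.17, SE 0.284), which also rose in G34V (1.15, SE 0.285).

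Of 11 genes of the sphingosine-1-phosphate pathway, the lyase gene Sgpl1 rose in G34R (0.31, SE 0.0535) and in G34V (0.27, SE 0.0537), and the receptor gene S1pr5 fell in G34V (-0.997, SE 0.157) and, at day 7, in G34R (-1.42, SE 0.246). Of 11 partners and ligands of CD44, Msn, which encodes the membrane linker moesin, rose in G34R (0.52, SE 0.102) and in G34V (0.37, SE 0.103). Of 10 clusterin and lipoprotein partners, the microglial receptor gene Trem2 (1.42, SE 0.154) and Apoe (0.31, SE 0.0513) rose in G34R. In G34W the called genes of these pathways were Ptpn11 (-0.24, SE 0.0576), the interleukin-1 receptor chain gene Il1rap (-0.42, SE 0.0782) and the sphingosine-1-phosphate exporter gene Spns2 (-0.44, SE 0.0884), which fell, and the lipid transporter gene Abca1 (0.44, SE 0.102), which rose. Trem2 averaged 25.0 ± 3.27 CPM in G34R (SD, n = 3) and 9.33 ± 1.37 CPM in WT (SD, n = 6).

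The genes most like each of the described genes over the 14 animals at 10 weeks were taken as those with the smallest root mean square difference of centred log2(CPM + 0.5) values, among 16833 genes with a mean of at least 1 CPM. For Serpina3n the nearest was Slc14a1 (0.207 on the log2 scale), followed by Irf9 (0.246), an interferon signalling factor, and S100a4 (0.254). Irf9 was also nearest to Slc14a1 (0.149), ahead of Fcer1g (0.160) and Laptm5 (0.166). For Ggta1 they were Ctsc (0.172), Cyth4 (0.175) and Tbxas1 (0.177), and for Osmr they were Adcy7 (0.142), Tmem176a (0.188) and Clec5a (0.190). Aspg was nearest to Tnfrsf1b (0.141), Ctsd (0.147) and Plek (0.156), and Clu to Sbno2 (0.0940), Cotl1 (0.101) and Hvcn1 (0.104). Fgfr2 (0.131) was nearest to S1pr3. These are descriptions over animals that share groups, with no test, and Lcn2 and Steap4 were below 1 CPM.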

How the data were processed

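The authors deposited whole-number read counts per Ensembl gene for 23 libraries of cortical total RNA. Per the submitters' processing notes, featureCounts 1.4.4, STAR 2.3.0e, Trimmomatic 0.32, bedtools 2.27.1 and mm10 were used, in roles not stated. Annotation release and strand setting were not given in the sources used here. Of the 39017 genes, 37607 matched GENCODE M21, which gave coordinates and exon lengths.

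The 2 libraries of 1 WT animal (replicate 3 at 10 weeks) were summed. The genes of chromosome Y, with Xist and Tsix, 175 in all, were left out of the tests, and other genes of chromosome X were kept. Genes passing filterByExpr were scaled by TMM and tested with edgeR 4.0.16 (robust quasi-likelihood, R 4.3.3, Benjamini-Hochberg, threshold 0.05) in fits of the 14 animals at 10 weeks, the 8 at day 7 with sex as a covariate, and all 22. The scripts were tested on simulated counts. Alternatives were RLE scaling, no filter, DESeq2 1.42.0, each animal left out, only the compared groups, a block on number runs, sex terms, males only, each library of the animal sequenced in 2 libraries, mitochondrial and rRNA genes left out, and, after seeing the data, libraries of lower or higher mitochondrial share or this set as a covariate.

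Named were all 10 genes, up to 3 called genes per list with the smallest adjusted p, and the 3 genes nearest in pattern. The genes and lists were chosen with earlier results of these data known. Replicate numbers are not shared between groups in the labels. P-values set the difference between groups against the spread between animals, which was estimated over all groups of a fit together.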

Additional observations from a re-analysis of the deposited data

Results flagged for a closer look

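In 4 genes the effect of G34R at 10 weeks differed from that at day 7 by edgeR's test of the difference with Benjamini-Hochberg adjustment. The difference in log2 fold change was 1.19 for Ggta1, 1.04 for Osmr, 1.05 for Slc14a1 and 0.75 for Clu, where the levels of the 3 G34R animals at 10 weeks were all above those of the 6 WT animals and the day-7 groups overlapped.

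By Dixon's ratio (the gap of the highest or lowest animal to its nearest neighbour over the range of the group, for groups of 4 to 10 animals), single animals passed the 95% critical value in 4 of the 30 combinations of gene and group examined. By the construction of that value, chance would mark about 1 in 20 where values are normally distributed. Counts as low as those of Lcn2 and Steap4 are not, so that rate does not apply to these 2 genes. Lcn2 had 0.0813 CPM in 1 WT animal at day 7 and 0 in the other 3, on 4 counts. Steap4 reached 0.694 CPM in 1 WT animal at 10 weeks and 0.884 CPM in 1 G34R animal at day 7, both above the rest of their groups. Clu was lowest in 1 WT animal at 10 weeks, the one sequenced in 2 libraries, at 546 CPM.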

How the results depend on the processing

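The 6 calls in G34R against WT at 10 weeks held in all 18 alternatives. With the replicate block on runs of consecutive animal numbers, whose meaning the labels do not give, 0 of the 10 genes were called in G34V (3 without it), and 414 genes in all (905 without it) and 70 in G34W (343 without it). With the block Lcn2 had log2 fold changes of 0.98 in G34R and -0.58 in G34V, Cd44 -0.070 in G34R, and Ggta1 and Aspg -0.094 and -0.068 in G34W, all turned and none called. Between substitutions the block, added after seeing the data, called 0 of the 10 genes and 4 genes in all between G34R and G34V, 1 and 19 between G34R and G34W, and 14 in all between G34V and G34W. It turned Lcn2 to 1.56 and Steap4 to -0.040 between G34R and G34V, Cd44 to -0.022 between G34R and G34W, and Osmr to -0.036 between G34V and G34W. With the mitochondrial set as a covariate, 0 of the 10 genes and 3 genes in all were called between G34R and G34V, with Lcn2 at 1.30 and Osmr at -0.025, and 1 and 6 between G34R and G34W, with Cd44 at -0.084.

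Only the libraries of higher mitochondrial share gave 519 genes in G34V and 91 in G34W, with Lcn2 at -0.34 and Steap4 at -0.020 in G34V. In G34W, DESeq2 called 916 genes, a sex covariate 630 and only the compared groups 145. DESeq2 called 4 of the 10 genes and 281 genes in all between G34R and G34V (2 and 49 in edgeR), 1118 between G34R and G34W (400), 2 and 309 between G34V and G34W (0 and 32, and 1 of the 10 genes with no filter), 1 and 211 at day 7 (0 and 63, and 158 with no filter), and 461 for the difference between ages (261). Males only gave 117 genes and 2 of the 10 for that difference (4 in both sexes), with Cd44 at 0.057, and Steap4 at 0.87 for age in WT. Cd44 was -0.012 in G34R with only library 2 of the animal sequenced in 2 libraries.

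Leaving out each animal in turn, the counts over all genes ranged from 693 to 1093 in G34R (1193 with all), 497 to 856 in G34V, 68 to 590 in G34W, 13 to 129 between G34R and G34V, 118 to 508 between G34R and G34W, 10 to 302 between G34V and G34W, 5 to 39 at day 7 and 133 to 281 for the difference between ages. Of the 10 genes it called 0 to 4 between G34R and G34V, 0 to 2 between G34V and G34W and 0 to 1 at day 7. Where 1 G34W animal remained, it was assumed to vary like the other groups.

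Uncalled values changed sign in some of these fits. Cd44 ranged from -0.17 to 0.12 in G34R, -0.066 to 0.26 in G34V, -0.31 to 0.13 in G34W, -0.30 to 0.080 between G34R and G34V, -0.13 to 0.32 between G34R and G34W and -0.0043 to 0.45 between G34V and G34W. S1pr3 ranged from -0.020 to 0.21 in G34R, -0.091 to 0.35 between G34V and G34W, -0.012 to 0.079 at day 7, -0.037 to 0.20 for the difference between ages and -0.23 to 0.022 for age in G34R. Steap4 ranged from -0.32 to 0.35 in G34V, -0.64 to 0.15 in G34W, -0.17 to 0.72 between G34V and G34W, -0.14 to 0.60 at day 7, -0.074 to 0.90 for the difference between ages and -0.31 to 0.26 for age in WT. Lcn2 ranged from -0.20 to 0.76 in G34V, Aspg from -0.13 to 0.23 in G34W and Slc14a1 from -0.013 to 0.12 at day 7. The cause of these changes was not tested. Scaling by RLE moved the median over all genes by under 0.02 in each comparison.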
